A study of Mus musculus with 6 samples.

Results

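Messages for 10 subunits of complexes that meet the growing polypeptide at the ribosome's exit were compared. The comparison was between crude and resin-purified ribosomes of mouse embryonic stem cells. The genes were chosen by the complex they belong to. They were Naca and Btf3 of the nascent polypeptide-associated complex (NAC), Dnajc2 and Hspa14 of the ribosome-associated complex (RAC), and Srp9, Srp14, Srp19, Srp54a, Srp68 and Srp72 of the signal recognition particle (SRP). They are 10 of the 51912 genes in the quantification, and all 10 were among the 13231 genes that passed the filter on low counts. The source was E14, a single line of mouse embryonic stem cells grown on gelatin with serum and leukemia inhibitory factor. All cells received cycloheximide, which stops elongating ribosomes on their messages, shortly before harvest. RAPIDASH, the purification named in the labels, first sediments ribosomes through a sucrose cushion and then passes the pellet over a resin charged with cysteine. The pellet group holds 3 libraries of poly(A) RNA extracted straight from the cushion pellet, and the eluate group holds 3 libraries of poly(A) RNA recovered from the resin. The comparison addresses how the message content of ribosomes recovered from the resin differs from that of the cushion pellet.

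NAC is a heterodimer of an alpha subunit, Naca, and a beta subunit, Btf3, that docks beside the exit tunnel and shields emerging chains. RAC pairs the J-domain protein Dnajc2 with the atypical Hsp70 Hspa14, and stimulates Hsp70 proteins that fold chains as they are made. SRP is an RNA and protein particle that recognises signal sequences and carries the ribosome to the endoplasmic reticulum. Its GTPase Srp54 binds the signal sequence, Srp9 and Srp14 form the heterodimer that slows elongation, Srp19 helps to assemble Srp54 onto the RNA, and Srp68 and Srp72 form a further heterodimer. NAC and SRP are known to compete at the exit site, where NAC limits SRP binding to ribosomes without a signal sequence. The measurements here are of the messages, not of the proteins bound to ribosomes.

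Srp54a and Naca have copies so alike that reads can be shared between them, and these sequences are shown because the counts of these genes depend on how such reads were divided. GENCODE mouse release 21 holds 3 Srp54 genes in the quantification. Its names are used here, and the authors' deposited table gives the symbol Srp54b to the gene named Srp54c here. The 1512 coding bases of Srp54a and Srp54b had 0 differences, and those of Srp54a and Srp54c had 6, which are T501C, T945C, G946A, T965G, A1197T and G1249A with Srp54a's base first and positions counted from 1 at the first coding base. The stretch of coding bases 936 to 975, with 3 of these differences in capitals, reads as follows.
Srp54a: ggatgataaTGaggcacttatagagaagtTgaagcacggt
Srp54b: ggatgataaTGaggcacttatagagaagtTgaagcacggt
Srp54c: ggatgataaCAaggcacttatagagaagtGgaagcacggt
The Naca pseudogene Gm6863 aligned to Naca coding bases 22 to 645 with 1 difference, G558A, over 624 bases. Coding bases 10 to 21, of which 5 differed, were left out of this count as an unshared start. The difference stands in capitals in coding bases 538 to 578.
Naca: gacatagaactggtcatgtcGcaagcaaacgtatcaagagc
Gm6863: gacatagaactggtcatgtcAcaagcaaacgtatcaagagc
The 31-base subsequences of each gene were taken from its transcript with the most counts, which for Srp54a was Srp54a-202. They were searched for in the genes of GENCODE mouse release 21, and the 7368 quantified transcripts not matched to it were not searched. Of those of Srp54a, 23.0% occurred in no other quantified gene of that release, against 32.1% for Naca and 39.3% for Btf3. The share was 76.3% to 100% for the other 7 members, with Srp68 and Srp72 at 100%.

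Library totals were 7837621 to 10438536 estimated counts in the pellets and 10019627 to 11642883 in the eluates. Chi-square values per gene were 3.13 to 18.4 between libraries of a group and 33.6 to 83.0 between groups, so no library was treated as a repeat of another. The labels do not say that replicates came from separate cultures, and p-values therefore measure the spread between these samples. Pellet 1 lay nearest to the eluates over all genes, and its values are given with the others. The 9 embryonic stem cell markers were all detected, at a summed 11521 to 12911 TPM (a level scaled for transcript length to the same total in every library) in the pellets and 15331 to 15392 in the eluates. A single marker averaged 8908 TPM, so the sum leans on it. In the test used below 4 of the 9 were called higher, 2 lower and 3 were not called, against 24.5% higher and 28.2% lower over all genes. The 16 markers of endoderm, mesoderm, trophoblast, neural and feeder cells summed to 18.2 to 23.0 TPM and 22.1 to 24.8 TPM, with Elf5 and Postn at 0 in every library. The part of these marker sums in the results below was not tested. Values are shares of each library's poly(A) RNA. A lower value in the eluates is thus a smaller share of that fraction and does not measure the level of a message in the cells.

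The eluates held more Btf3 and Srp14 message and less Dnajc2, Hspa14, Srp9, Srp19, Srp54a and Srp72 message than the pellets. The largest change among the 10 in this fit was that of Srp54a, whose level fell by 58.44%, and the larger of the 2 rises was that of Btf3, which was 38.0% higher. With the trend in GC content and length removed (described further on), Srp54a was at -0.52 and Btf3 at 0.53 on the log2 scale. Thus 2 members rose, 6 fell and 2 (Naca and Srp68) did not pass the test, with edgeR's quasi-likelihood test at a Benjamini-Hochberg adjusted p under 0.05 over all genes tested. Over all genes the same test called 52.7%, with 24.5% higher and 28.2% lower, so a call in itself sets no gene apart here. The median log2 fold change of the 10 members was -0.35, against 0.0035 over all genes tested. The libraries of the groups did not overlap in CPM (estimated counts scaled to a common library size with TMM factors) for 8 members, the exceptions being Srp19 and Srp68, and for 60.3% of all genes tested. Without pellet 1 the counts of members were again 2 higher, 6 lower and 2 not called, and the median was -0.46. Leaving out any 1 library gave 2 or 3 members higher and 4 to 6 lower.

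**Figure D1:**
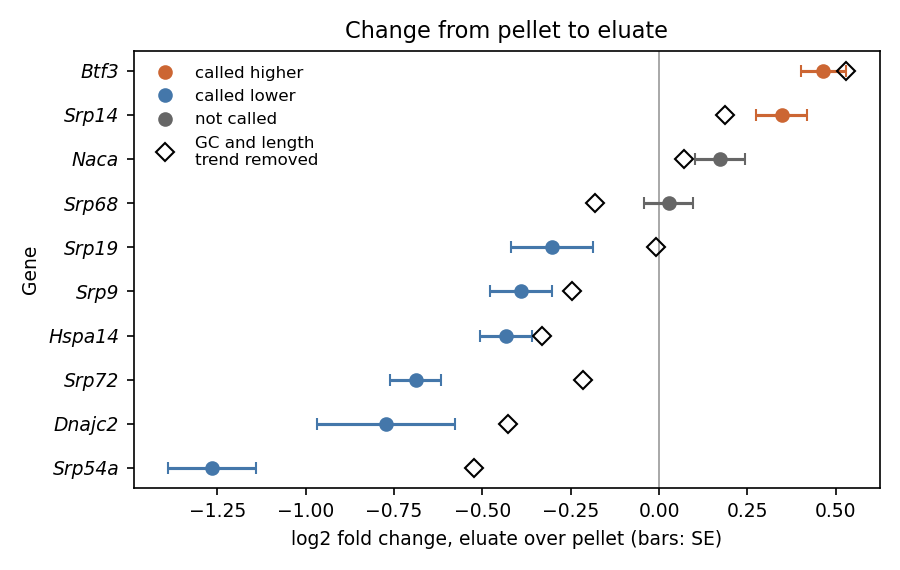
Log2 fold change of each gene from pellet to eluate (horizontal axis; filled points, with bars for the standard error, coloured by call) and the same change after each library's smooth trend in GC content and transcript length was removed (open diamonds, without error bars). Btf3 at 0.46 and Srp14 at 0.35 lie to the right of 0, and Srp54a at -1.27 lies farthest to the left and moves to -0.52 when the trend is removed.

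The NAC messages were the most abundant of the set, and within the pair the beta subunit rose. Btf3, the beta subunit, had 902, 984 and 942 CPM in the pellets, in the order of their numbers, and 1327, 1318 and 1256 CPM in the eluates. Every eluate was above every pellet. The log2 fold change was 0.46 ± 0.06 (SE, n = 3 libraries per group, adjusted p = 2.0e-05, edgeR). Naca, the alpha subunit, stood at 1061, 1259 and 1211 CPM in the pellets and at 1312, 1354 and 1313 CPM in the eluates. The eluates were again all above the pellets, but the lowest eluate exceeded the highest pellet by little, and pellet 1 was the lowest library. Its log2 fold change of 0.17 ± 0.07 (SE, n = 3) missed the threshold at an adjusted p of 0.0517 (edgeR). The 95% interval of this change was 0.03 to 0.32 in limma's voom fit, which called the gene at an adjusted p of 0.0430, as did DESeq2 at 0.0330. Without pellet 2 the change was 0.23 and passed, at an adjusted p of 0.0177 (edgeR), and without pellet 1 it was 0.10 (0.122). It did not pass without any of the other 4 libraries, at adjusted p of 0.0840 to 0.165. The authors' deposited table lists Naca at a log2 fold change of 0.20 with an adjusted p of 0.0172 and Btf3 at 0.52.

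In TPM, Naca measured 1824 ± 15.5 (SD, n = 3) in the pellets and 1981 ± 12.2 in the eluates, and Btf3 1518 ± 79.3 and 2045 ± 52.1. Naca was therefore the higher of the pair in all 3 pellets and Btf3 in all 3 eluates. The ratio of Btf3 to Naca was 0.890, 0.803 and 0.804 in the pellets and 1.07, 1.03 and 1.01 in the eluates. The ratio rose by 0.31 on the log2 scale and its groups did not overlap, with a two-sided exact permutation p of 0.1, which is the smallest that 3 libraries against 3 can give, and 0.125 after adjustment over the 5 ratios tested. With the GC and length trend removed, Btf3 was at 0.53 and Naca at 0.07. The summed NAC level was 3342 ± 65.9 TPM in the pellets and 4026 ± 45.1 TPM in the eluates (SD, n = 3).

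The main Btf3 transcript, Btf3-205, held 94.5% of the gene's TPM and had a log2 fold change of 0.45 ± 0.06 (SE, adjusted p = 0.00349, edgeR on all transcripts, in which 26.0% of those tested were called). A minor protein-coding Btf3 transcript, with 3.63% of the gene's TPM, was also called higher, at 0.80 ± 0.23 (SE, adjusted p = 0.0498), and was named after its values were seen. Naca-201, the short transcript with 99.9% of the gene's TPM, changed by 0.16 (adjusted p = 0.175, edgeR). The long Naca-202, which encodes the muscle form skNAC, was listed at 2.74, 1.82 and 2.04 TPM in the pellets and at 2.83, 2.90 and 3.34 TPM in the eluates. Its eluates lay above its pellets, with pellet 1 close to the eluates, and the log2 change was 0.57 ± 0.14 (SE, adjusted p = 0.0314, edgeR on transcripts); this transcript was singled out after its values were seen. Of the 22 transcripts of the 10 members, 4 were called higher, 6 lower and 7 were not called, and 5 did not pass the filter on low counts. The number called among them was 10 and ranged from 5 (without pellet 3 or eluate 3) to 13 (without pellet 1) when 1 library was left out, and was 6 without pellet 2, eluate 1 or eluate 2.

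Copies added little to the NAC counts as deposited. The Naca pseudogene Gm6863 holds 66.0% of Naca's 31-base subsequences and was listed at a mean of 6.75 CPM. Its estimated counts were 52.4, 96.9 and 50.5 in the pellets and 88.6, 68.4 and 49.1 in the eluates, which overlap. The Btf3 pseudogene Gm3531 holds 41.3% and was listed at a mean of 1.85 CPM. With copies holding at least 50% of a gene's subsequences added, the log2 fold change of Naca was 0.17. No copy of Btf3 reached that share, so this setting added nothing to Btf3. With every copy of at least 3% added, a setting chosen after seeing the data, Btf3 was at 0.46.

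**Figure D2:**
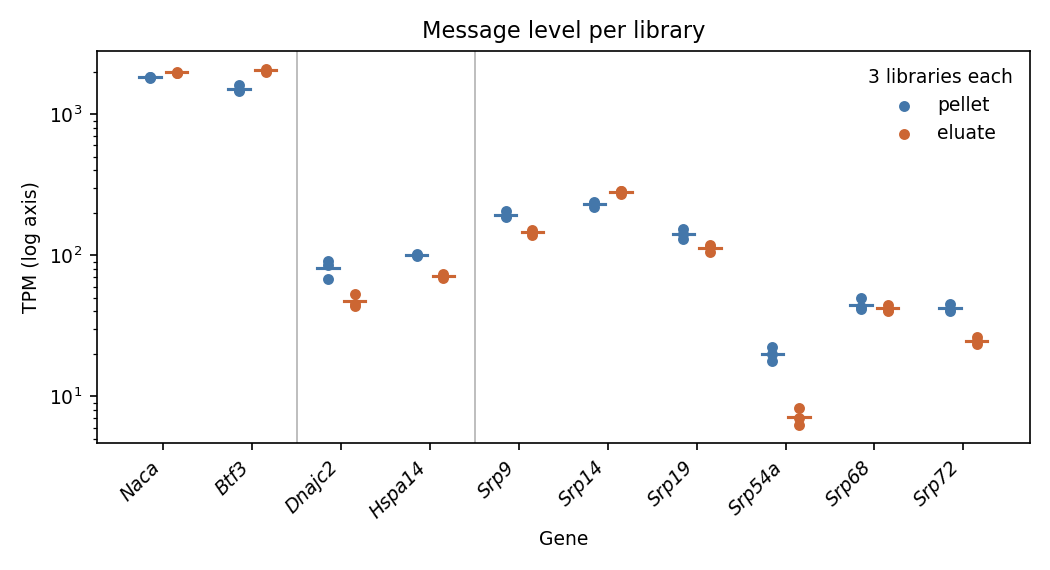
TPM of each gene in each library on a log axis (points, 3 pellets and 3 eluates; horizontal bars, group means), with vertical lines between NAC, RAC and SRP. Naca and Btf3 lie between 1468 and 2105 TPM, and Srp54a lies lowest, with pellets at 17.7 to 22.4 TPM and eluates at 6.22 to 8.30 TPM.

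Both RAC messages fell. Hspa14, the Hsp70 of the pair, stood at 143, 165 and 164 CPM in the pellets and at 112, 119 and 119 CPM in the eluates. The eluates lay below all pellets, and the log2 fold change was -0.43 ± 0.07 (SE, n = 3, adjusted p = 0.000157, edgeR). Dnajc2, the J-domain partner, stood at 107, 170 and 154 CPM in the pellets and at 75.7, 96.7 and 79.5 CPM in the eluates. The groups did not overlap, but pellet 1 at 107 was close to eluate 2 at 96.7. The log2 fold change was -0.77 ± 0.20 (SE, n = 3, adjusted p = 0.0185, edgeR). This call did not hold without eluate 3 (adjusted p = 0.0508), without pellet 3 (0.0545) or without both libraries numbered 3 (0.0921). The authors' deposited table lists log2 fold changes of -0.69 for Dnajc2 and -0.41 for Hspa14.

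The RAC sum was 182 ± 11.5 TPM in the pellets and 119 ± 5.94 TPM in the eluates (SD, n = 3). The ratio of Dnajc2 to Hspa14 was 0.676, 0.913 and 0.842 in the pellets and 0.629, 0.752 and 0.616 in the eluates. Pellet 1 fell within the eluate range, and the difference of -0.28 on the log2 scale gave a two-sided exact permutation p of 0.2, and 0.2 after adjustment. Hspa14 has an overlapping gene, Gm45902, which shares 321 exon bases with it on the same strand, holds 16.5% of its 31-base subsequences and was listed at a mean of 5.29 CPM.

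The SRP messages did not move as 1 group: of the 6, 1 rose (Srp14), 4 fell (Srp9, Srp19, Srp54a and Srp72) and Srp68 did not pass the test. Over all genes tested 24.5% were called higher and 28.2% lower. Before any trend was removed, the heterodimer that slows elongation separated in direction. With the GC and length trend removed the directions stayed opposite but the changes were smaller, at 0.19 for Srp14 and -0.25 for Srp9. They were not opposite once the GC trend alone was removed. Srp14 was then at 0.46 (adjusted p = 3.4e-07, edgeR) and Srp9 at 0.03 (0.751), which was not called. Srp14 stood at 122, 140 and 127 CPM in the pellets and at 160, 171 and 165 CPM in the eluates, all eluates above all pellets. Its log2 fold change was 0.35 ± 0.07 (SE, n = 3, adjusted p = 0.000796, edgeR). Srp9 stood at 160, 203 and 179 CPM in the pellets and at 127, 147 and 139 CPM in the eluates, all eluates below all pellets. Its log2 fold change was -0.39 ± 0.09 (SE, n = 3, adjusted p = 0.00156, edgeR). The ratio of Srp14 to Srp9 in TPM went from 1.27, 1.15 and 1.17 in the pellets to 1.96, 1.88 and 1.94 in the eluates, with no overlap. The log2 difference of 0.69 gave the smallest possible exact two-sided permutation p of 0.1 (0.125 adjusted). Of Srp9's transcripts, Srp9-201 with 78.2% of its TPM changed by -0.40 (adjusted p = 0.0344, edgeR) and Srp9-202 with 21.8% by -0.36 (adjusted p = 0.220). The authors' deposited table lists -0.33 for Srp9 and 0.36 for Srp14.

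In this fit the Srp68 and Srp72 heterodimer gave the pair with 1 member level and the other lower. With the GC and length trend removed both were called lower, Srp68 at -0.18 (adjusted p = 0.0202, edgeR) and Srp72 at -0.21 (0.0091). Srp72 stood at 133, 137 and 134 CPM in the pellets and at 87.6, 84.8 and 78.0 CPM in the eluates, with a wide gap between the groups. Its log2 fold change was -0.69 ± 0.07 (SE, n = 3, adjusted p = 1.50e-06, edgeR). Srp68 stood at 110, 107 and 106 CPM in the pellets and at 115, 109 and 106 CPM in the eluates. These ranges overlapped, the log2 fold change was 0.03 ± 0.07 (SE, n = 3, adjusted p = 0.762, edgeR), and the 95% interval in limma's voom fit was -0.12 to 0.17. The ratio of Srp72 to Srp68 in TPM fell from 0.912, 0.961 and 0.966 in the pellets to 0.595, 0.597 and 0.576 in the eluates. The groups were apart by -0.68 on the log2 scale, at the smallest exact two-sided permutation p of 0.1 (0.125 adjusted). The most counted transcripts of Srp68 and Srp72 have no subsequence in common with another gene, so reads shared with other genes do not enter the counts of these transcripts. Srp72-201, with 96.0% of the gene's TPM, changed by -0.63 ± 0.06 (SE, adjusted p = 0.00235, edgeR on transcripts), and the minor Srp72-202, named after its values were seen, was listed at 89.5 and 62.6 estimated counts in pellets 2 and 3 and at 0 in the other 4 libraries.

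**Figure D3:**
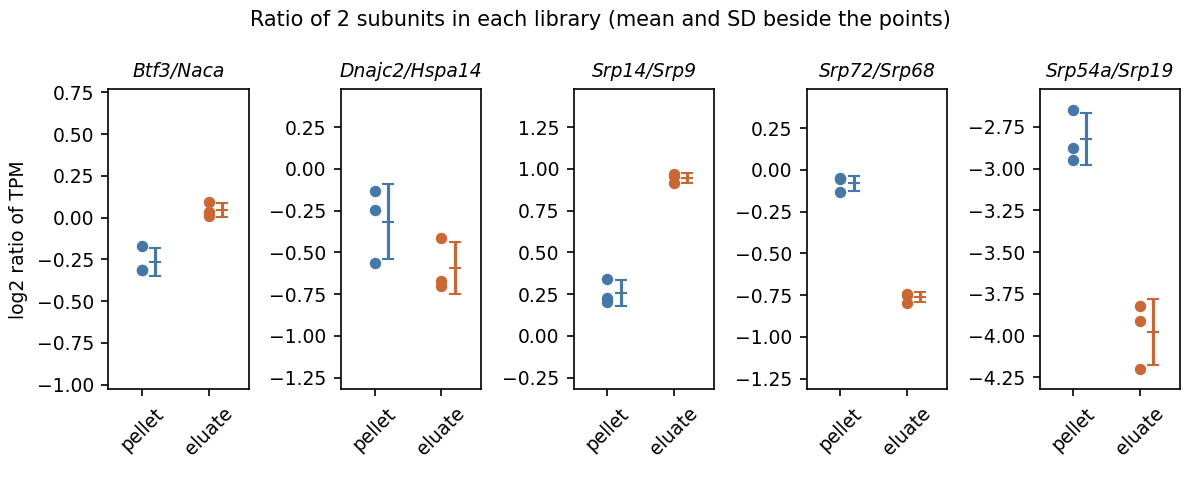
Log2 ratio of TPM between 2 subunits in each library, 1 panel per pair with its own vertical scale (points, 3 pellets and 3 eluates; bars beside them, mean and SD). The groups are apart in every panel but that of Dnajc2 and Hspa14, with differences of 0.31 for Btf3/Naca, 0.69 for Srp14/Srp9, -0.68 for Srp72/Srp68 and -1.15 for Srp54a/Srp19. The trend in GC content and length was not removed from these ratios.

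Srp54a, the signal-sequence binding GTPase, stood at 35.2, 43.1 and 46.1 CPM in the pellets and at 17.1, 19.4 and 15.1 CPM in the eluates, so that the highest eluate was well below the lowest pellet. The log2 fold change was -1.27 ± 0.12 (SE, n = 3, adjusted p = 8.96e-07, edgeR), which placed the gene at the 4.84 percentile of all genes tested. Its 2 main transcripts both fell as estimated, with log2 fold changes of -1.78 ± 0.28 for Srp54a-201 (SE, 63.1% of the gene's TPM, adjusted p = 0.00685, edgeR on transcripts) and -1.04 ± 0.12 for Srp54a-202 (SE, 36.9%, adjusted p = 0.00277). Srp54a-201 measures 1515 bases, of which 1512 are the coding bases that Srp54b shares without a difference. Its count and share of TPM therefore rest on how reads were divided, and it is not a separate measure of the fall. The authors' deposited table lists Srp54a at -1.39.

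The other Srp54 genes fell as well in this fit, but not with the GC and length trend removed, where Srp54b was at -0.07 (adjusted p = 0.706, edgeR) and Srp54c at 0.15 (0.177). Srp54b stood at 17.1, 23.1 and 22.6 CPM in the pellets and at 12.7, 10.6 and 14.5 CPM in the eluates, with a log2 fold change of -0.73 ± 0.15 (SE, adjusted p = 0.000767, edgeR). Srp54c stood at 34.7, 54.7 and 54.4 CPM in the pellets and at 26.3, 31.2 and 24.3 CPM in the eluates, with a log2 fold change of -0.81 ± 0.18 (SE, adjusted p = 0.00447, edgeR). Neither gene's groups overlapped, though pellet 1 was the lowest pellet for both. Srp54b and Srp54c hold 77.0% and 73.8% of Srp54a's 31-base subsequences, so the division between the 3 genes is uncertain. Their summed counts do not depend on how reads were divided among the 3. The sum was 87.1, 121 and 123 CPM in the pellets and 56.1, 61.2 and 54.0 CPM in the eluates, without overlap, and had a log2 fold change of -0.95 (adjusted p = 5.2e-05, edgeR). In TPM, which depends on that division through the genes' unequal lengths, the sum was 52.9 ± 6.81 in the pellets and 26.3 ± 1.95 in the eluates (SD, n = 3). As estimated, Srp54a's share of that TPM sum was 38.9%, 36.4% and 38.2% in the pellets and 27.0%, 29.3% and 25.4% in the eluates, while that of Srp54c was 47.6%, 51.0% and 49.8% and then 57.3%, 59.2% and 55.7%.

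Srp19, the assembly subunit, stood at 67.0, 95.8 and 84.7 CPM in the pellets and at 62.1, 72.2 and 66.6 CPM in the eluates. The groups overlapped, since pellet 1 lay below eluate 2. The log2 fold change was -0.30 ± 0.12 (SE, n = 3, adjusted p = 0.0422, edgeR), and voom gave an adjusted p of 0.0587. The authors' deposited table, which lists genes with an adjusted p under 0.05, has no row for Srp19 or Srp68. Without pellet 2 the change was -0.17 (adjusted p = 0.208, edgeR), and the call was also lost without pellet 3 (0.113), eluate 1 (0.156) or eluate 3 (0.112). The ratio of Srp54a to Srp19 in TPM was 0.136, 0.130 and 0.160 in the pellets and 0.0665, 0.0707 and 0.0544 in the eluates. The groups did not overlap (log2 difference -1.15, exact two-sided permutation p = 0.1, adjusted 0.125). With the GC and length trend removed, Srp54a was at -0.52 and Srp19 at -0.01.

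In TPM the order of levels in the pellets was Naca, Btf3, Srp14, Srp9, Srp19, Hspa14, Dnajc2, Srp68, Srp72 and Srp54a, and of these neighbours only Srp68 and Srp72 overlapped between libraries. In the eluates Btf3 stood first and Naca next, and the remaining order was as in the pellets, with only Dnajc2 and Srp68 overlapping among neighbours. The distance in TPM between Naca and Srp54, from which the GC and length trend was not removed, was larger in every eluate. As estimated, Naca's TPM was 39.8, 33.6 and 31.1 times the sum of the 3 Srp54 genes in the pellets and 76.0, 69.7 and 81.5 times that sum in the eluates. With that trend removed, the log2 fold changes were 0.07 for Naca, -0.52 for Srp54a, -0.07 for Srp54b and 0.15 for Srp54c. Of these only that of Srp54a was called. The 6 listed SRP genes together measured 673 ± 20.7 TPM in the pellets and 612 ± 17.1 TPM in the eluates (SD, n = 3). All 10 genes summed to 4197 ± 57.3 TPM and 4757 ± 24.0 TPM. Of the complexes, only NAC had a higher sum in the eluates. Within SRP, Srp14 was higher too, at a mean of 231 TPM in the pellets and 280 TPM in the eluates.

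Across all 13231 genes the change from pellet to eluate followed GC content, with a Spearman rho of 0.71, and transcript length, with a rho of -0.44. Genes share libraries and base composition, so these are descriptions. Over the 10 members rho was 0.67 with GC and -0.75 with length. Of the members 9 lay below the median GC content of all genes tested, 50.8%, and Srp68 at 54.3% was the exception. The members that rose have short transcripts: Srp14 measured 798 nt and 49.4% GC, and Btf3 890 nt and 46.2% GC. The members with the longest transcripts, Srp72 (3592 nt, 45.1% GC) and Srp54a (3502 nt, 41.6% GC), fell. Srp19 combined a short transcript of 869 nt with a GC content of 43.4%, and Srp9 measured 1300 nt and 45.8%.

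**Figure D4:**
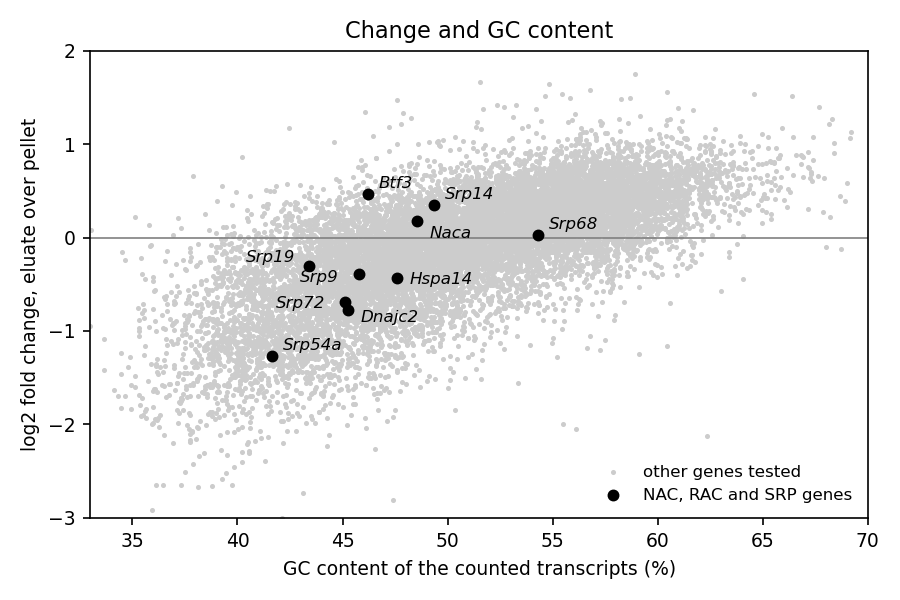
Log2 fold change from pellet to eluate against the GC content of the counted transcripts, for the 10 genes (black, named) and the other genes tested (grey; 27 of 13231 lie outside the plotted range). Btf3, at 46.2% GC, is at 0.46, and Srp68, which has the highest GC content of the 10 at 54.3%, is at 0.03.

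With each library's smooth trend in GC content and length removed, 34.9% of all genes were called, 19.0% higher and 15.9% lower, and the members again gave 2 higher, with 5 lower. Btf3 rose by 0.53 (adjusted p = 1.1e-08, edgeR) and Srp14 by 0.19 (0.011). Hspa14 changed by -0.33 (4.8e-05), Srp9 by -0.25 (0.0013), Srp54a by -0.52 (6.3e-05) and Srp72 by -0.21 (0.0091), all still lower. Dnajc2 at -0.43 (0.0836), Srp19 at -0.01 (0.95) and Naca at 0.07 (0.32) were not called, and Srp68 was called lower at -0.18 (0.0202). The median of the members was -0.20. With the GC trend alone removed, Srp9 was at 0.03 (adjusted p = 0.751) and Srp19 was called higher at 0.32 (0.000814), so their directions depend on this choice.

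Other genes of the same pathways, from lists written for this comparison, moved in both directions. Of 7 other NAC and SRP genes 4 could be tested, of which 0 rose and 3 fell (Srp54b, Srp54c and Btf3l4), and the SRP RNA gene Rn7s2, the remaining one, did not pass the test, with a log2 fold change of -2.13 ± 1.56 (SE, adjusted p = 0.322, edgeR). Btf3l4, a paralog of Btf3, was at -0.23 ± 0.09 (SE, adjusted p = 0.0478) with overlapping groups of 80.3, 107 and 101 CPM in the pellets and 83.2, 81.2 and 80.6 CPM in the eluates. Without the GC and length trend Btf3l4 was called higher, at 0.41 (adjusted p = 1.03e-05). The SRP RNA is not polyadenylated, and the estimated counts of Rn7s1 were 0, 30 and 0 in the pellets and 0, 6 and 3.5 in the eluates.

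Among 19 genes of the SRP receptor, the translocon and signal peptidase, 4 rose, 7 fell and 8 did not pass the test. The list's median was -0.14, and of all genes tested 24.5% were called higher and 28.2% lower. Ssr2, a subunit of the translocon-associated protein complex, was at 336, 336 and 319 CPM in the pellets and 481, 487 and 484 CPM in the eluates (log2 fold change 0.55 ± 0.06, SE, adjusted p = 2.45e-06, edgeR). Sec62, a translocon partner that serves post-translational import, fell by 0.96 on the log2 scale (SE 0.12, adjusted p = 1.14e-05). With the trend removed the counts were 7 higher and 2 lower, Ssr2 was at 0.12 (adjusted p = 0.0646) and Sec62 at -0.23 (0.0264).

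Among 14 genes that act on the chain's N-terminus, 3 rose and 8 fell, with a median of -0.33. Of all genes tested, 24.5% were called higher and 28.2% lower. Naa10, a catalytic subunit of the NatA acetyltransferase, was at 0.76 ± 0.09 (SE, adjusted p = 9.06e-06, edgeR), Naa25, the auxiliary subunit of NatB, at -1.13 ± 0.10 (2.78e-07) and Naa50, the NatE subunit, at -0.56 ± 0.09 (0.000109). With the trend removed this list gave 5 higher and 3 lower, with Naa10 at 0.20 (adjusted p = 0.0256), Naa25 at -0.58 (8.8e-07) and Naa50 turned to 0.55 (4.98e-08).

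The tail-anchor targeting list, whose proteins insert membrane proteins that SRP cannot reach co-translationally, had 6 of 7 genes higher and 0 lower, with a median of 0.33. Sgta, which hands on tail-anchored clients, was at 0.55 ± 0.08 (SE, adjusted p = 1.88e-05, edgeR) and the targeting ATPase Asna1 at 0.41 ± 0.06 (6.11e-05). With the trend removed 1 of the 7 was called higher, with Sgta at 0.08 (adjusted p = 0.287) and Asna1 at -0.09 (0.172). Among 13 cytosolic Hsp70 partners and prefoldin subunits, 4 rose and 7 fell, with a median of -0.44. With the trend removed 4 were higher and 3 lower, with a median of 0.08. Hspa8, the constitutive Hsp70, was at 3508, 3626 and 3627 CPM in the pellets and 2800, 2698 and 2411 CPM in the eluates, all eluates below all pellets, with a log2 fold change of -0.44 ± 0.07 (SE, adjusted p = 5.44e-05, edgeR). It was at -0.41 (adjusted p = 2.05e-06) with the trend removed. Hspa4, an Hsp70 nucleotide exchange factor, was at -1.04 ± 0.08 (SE, adjusted p = 2.2e-07), and the prefoldin subunit Pfdn6 at 0.64 ± 0.07 (3.14e-06). With the trend removed Hspa4 was at -0.57 (adjusted p = 1.18e-08) and Pfdn6 at 0.20 (0.00527).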

How the data were processed

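Poly(A) RNA was measured in 3 pellet and 3 eluate libraries, grouped by their titles. The submitters' processing notes name Salmon 1.10.3, STAR 2.7.11b, DESeq2 1.44.0, cutadapt 4.7 and the build GRCm39. No annotation release is given in the sources used here. The deposited Salmon tables hold estimated counts, TPM and lengths per transcript, per the file headers. The authors' deposited comparison table lists log2 fold changes, p-values, Wald statistics (a score) and mean normalized counts (a signal per gene). All its adjusted p are under 0.05.

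Of 84226 transcripts, 76858 matched GENCODE mouse release 21 by identifier. That release is on another build, so no coordinates are printed. The unmatched held 1.63% to 2.35% of a library's counts. Counts were summed per gene, rounded and tested with edgeR 4.0.16 in R 4.3.3 (quasi-likelihood, TMM, default low-count filter, adjusted p under 0.05). Ratios of TPM used two-sided exact permutation tests in Python 3.11.15. Intervals came from limma 3.58.1 (voom). DESeq2 1.42.0 was an alternative, as were other scalings, filters, a replicate block, leaving out libraries, and GC and length trends fitted by splines with 5 degrees of freedom. Adding every copy with at least 3% of a gene's 31-base subsequences was chosen after seeing the data.

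The members and lists were chosen with earlier results of these data known. Named were all members, in each list the genes with the smallest p in each direction and the highest mean CPM, copies holding at least 50% of a member's subsequences or listed at a mean of 1 CPM or more, and transcripts with 5% or more of a member's TPM. Other names, the SRP RNA genes and Srp54c among them, complete a short count or were chosen after their values were seen. In a simulation of the eluate against pellet comparison over 13074 genes, edgeR found 61.2% of 1.5-fold and 79.6% of 2-fold changes, and 16 of its 177 calls were false. It changed only 49 genes at each fold and held no GC trend, whereas 52.7% of genes were called in the data. These rates may therefore not hold for the real comparison. Estimated counts were 151 to 426 per library for Srp54a, the fewest of the members.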

Additional observations from a re-analysis of the deposited data

How the results depend on the processing

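Over the 29 alternatives, Btf3 (0.41 to 0.84), Hspa14 (-0.50 to -0.17), Srp14 (0.19 to 0.46), Srp54a (-1.47 to -0.51) and Srp72 (-0.77 to -0.21) kept direction and call. Dnajc2 lost its call in 5 and Srp19 in 13, while Naca passed in 12. The cause was not tested for any change below. With the GC trend alone removed, Srp19 was at 0.32, Srp9 at 0.029 and 4 members were higher. Srp68 was at -0.18 with the GC trend, the GC and length trend, or the block with that trend removed, at -0.088, -0.087 and -0.086 in TPM with pseudocounts of 0.1, 0.5 and 1, at -0.010 with an effective-length offset, and at -0.0020 to 0.056 when libraries were left out (-0.0020 without eluate 1).

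Genes called were 6977, 4621 with the GC and length trend removed, 4580 with the replicate block and that trend removed, and 4611 to 7761 when libraries were left out (4611 without both libraries numbered 3). Member transcripts called ranged from 5 to 13. Of the called genes 46.5% were higher, against 35.5% in TPM (1958 higher, 3558 lower) and 56.0% with upper-quartile factors (4055 higher, 3184 lower). Once trends in GC and length were taken out it was 54.4%. With the trend removed, the lists gave 5 higher and 3 lower (N-terminal processing), 7 and 2 (translocon), 1 and 0 (other NAC and SRP genes), 1 and 0 (tail-anchor), and 4 and 3 (Hsp70 partners). Of all genes 19.0% were then called higher and 15.9% lower.

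In their deviations from the group means, libraries of the same number correlated at 0.07, 0.15 and -0.01. Pellet 1 correlated better with eluate 3 (0.11) than with eluate 1, while pellet 2 correlated best with eluate 2. With 3 libraries per group this cannot decide whether a number marks the same cushion pellet, and the labels do not say. With the replicate block 3306 genes were higher and 3770 lower, and 3 members were higher (Naca at 0.18, adjusted p = 0.0274, edgeR) and 6 lower. The block together with the trend removed gave 6 lower, with Dnajc2 called at -0.42 (adjusted p = 0.000114).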
